A study of Homo sapiens with 6 samples.

Results

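The cluster of miR-221 and miR-222 comprises the hairpins MIR221 and MIR222 and the 4 mature strands cut from them, hsa-miR-221-3p, hsa-miR-222-3p, hsa-miR-221-5p and hsa-miR-222-5p. The strands were taken by name from the 449 mature miRNAs listed for the series, and all 4 were present. miRNAs were sequenced in breast cancer stem-like cells (BCSCs), cells enriched as spheres from MDA-MB-231, a human line of triple-negative breast cancer. All cells carried the genotype labelled WT and were sampled at 48 h. The 3 control libraries came from wells labelled Control (0 μg/mL), and the 3 RA libraries came from wells given rosmarinic acid (RA), a phenolic acid from Sarcandra glabra, at 200 μg/mL. The methods describe RA in dimethyl sulfoxide and count 0 μg/mL among its concentrations, so the control wells may have held this solvent. Both groups derive from 1 cell line, and the sources do not say whether the wells of a group were separate cultures, so the tests measure the spread between these libraries, which may be technical. The extraction notes in the labels describe brain tissue, whereas the methods and all other labels describe cultured cells.

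Each miRNA hairpin is cut into a duplex of a 5p and a 3p strand. As a rule, the strand that is loaded into the Argonaute protein accumulates as the guide, and its partner is degraded. A guide pairs with target messenger RNAs mainly through its seed, bases 2 to 8 from the 5′ end. The 3p strands of this cluster are the usual guides and are known to repress the cell cycle inhibitor CDKN1B, the receptor tyrosine kinase KIT and the estrogen receptor ESR1. In breast cancer they are known for high levels in basal-like, estrogen receptor-negative tumors compared to luminal tumors, and in normal tissue they are abundant in endothelial cells.

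The mature sequences are shown because the 3p strands share a seed and the 5p strand does not. They are taken from RefSeq (GRCh38.p14), with the seed in capitals.
hsa-miR-221-3p: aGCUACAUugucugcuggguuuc
hsa-miR-222-3p: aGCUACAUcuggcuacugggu
hsa-miR-222-5p: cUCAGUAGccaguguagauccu

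The 3p strands were identical over the first 8 bases and then diverged, so that whole reads of one can be told from the other. Of the 404 listed miRNAs with a RefSeq entry of the same name, only these 2 carried the seed GCUACAU, and miR-222-5p alone carried UCAGUAG. The hairpin of miR-222 is shown to place its arms, in capitals, with the 5p arm to the left of the loop and the 3p arm to the right.
MIR222: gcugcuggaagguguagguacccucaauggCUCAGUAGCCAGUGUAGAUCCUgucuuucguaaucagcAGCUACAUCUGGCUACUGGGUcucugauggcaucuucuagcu

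On GRCh38, MIR221 lies on the minus strand of chromosome X from 45746157 to 45746266, and MIR222 lies from 45747015 to 45747124 on the same strand. The hairpins are 110 bases each and 748 bases apart. In GENCODE 29 both sit in the intron of the transcript MIR222HG-201 of the non-coding host gene MIR222HG, which runs from 45745211 to 45770274. They lie outside its shorter transcript MIR222HG-202. The deposited values carry no coordinates, and the submitters' processing notes name hg19.

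The values are normalized read counts (CPM, reads of a miRNA relative to a library size that the authors scaled). Whole reads could be recovered from them in every library. The control libraries held 2190324 to 4111404 miRNA reads and the RA libraries held 176590 to 1158116, with a median 11.5-fold lower in the RA group, so depth cannot be told apart from treatment. Across all miRNAs, correlations of log2(CPM + 1) were 0.989 to 0.993 between controls and 0.917 to 0.933 between RA libraries. Epithelial and luminal markers summed to 195 to 278 CPM in control libraries and 183 to 282 CPM in RA libraries, with miR-141-3p and miR-205-5p not among the listed miRNAs. The sum of the 7 blood cell markers lay between 1935 and 2104 CPM in control libraries and between 1683 and 2682 CPM in RA libraries. Of these 7, 1 passed as higher after RA in limma, where 2.9% of all miRNAs did. This was miR-451a of red blood cells, named after its value was seen, with means of 15.0 ± 16.2 CPM and 402 ± 401 CPM (SD, n = 3 each, adjusted p = 0.031 from limma). Its call ended in limma on dropping control replicate 1 or 3 or RA replicate 1 or 3 (highest adjusted p = 0.44) and at a pseudocount of 5 (adjusted p = 0.068). Without 1 library its log2 fold change lay between 3.08 and 5.55. Another of the 7, miR-150-5p, also named after its value was seen, had means of 0.875 ± 0.211 CPM and 70.8 ± 123 CPM (SD, n = 3 each). It passed as higher in edgeR (adjusted p = 0.0064), where 14.7% of all miRNAs passed in either direction, but not in limma (adjusted p = 0.63). Of the 6 brain markers 4 were listed, summing to 5277 to 5680 CPM in control libraries and 4269 to 6256 CPM in RA libraries, while miR-124-3p and miR-138-5p were not listed. Among the listed ones miR-129-5p averaged only 8.50 CPM over the 6 libraries, so miR-9-5p, miR-9-3p and miR-219a-5p together carried the sum. The source of that signal was not tested.

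hsa-miR-221-3p was the most abundant strand of the cluster. It stood at 5434, 6122 and 5862 CPM in control replicates 1, 2 and 3 and at 6453, 6090 and 7136 CPM in RA replicates 1, 2 and 3. RA replicates 1 and 3 lay above every control, and RA replicate 2 lay among the controls. The mean was 6560 ± 532 CPM with RA against 5806 ± 347 CPM without (SD, n = 3 each). These values came from 10328 to 26296 reads in the controls and 1169 to 6535 reads after RA. By mean level it ranked 27 of the 449 miRNAs, and its rank within a library was 26 to 31 in the controls and 23 to 28 after RA.

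hsa-miR-222-3p, which shares its seed, was lower. Control replicates 1, 2 and 3 gave 2272, 2417 and 2437 CPM, and RA replicates 1, 2 and 3 gave 2866, 1459 and 2201 CPM. The controls lay close together, whereas RA replicate 1 was above every control and RA replicates 2 and 3 were below every control. The control mean was 2375 ± 89.8 CPM and the RA mean 2175 ± 704 CPM (SD, n = 3 each). The lowest value rested on 280 reads, with an exact 95% Poisson interval of 1293 to 1640 CPM, which ends below every control. Such intervals cover counting error only. The strand ranked 48 to 50 within the control libraries and 47 to 56 within the RA libraries.

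hsa-miR-221-5p, the partner strand of miR-221-3p, reached 323, 309 and 241 CPM in control replicates 1, 2 and 3 and 390, 240 and 177 CPM in RA replicates 1, 2 and 3. RA replicate 1 was the highest library and RA replicate 3 the lowest, so the RA values spanned those of the controls. The means were 291 ± 44.1 CPM and 269 ± 109 CPM (SD, n = 3 each). RA replicates 2 and 3 held 46 and 61 reads of this strand.

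hsa-miR-222-5p was the least abundant strand, at 77.9, 61.7 and 84.1 CPM in control replicates 1, 2 and 3 and 104, 125 and 64.0 CPM in RA replicates 1, 2 and 3. RA replicates 1 and 2 lay above every control and RA replicate 3 lay among them. The means were 74.6 ± 11.6 CPM and 97.6 ± 31.0 CPM (SD, n = 3 each). RA replicates 2 and 3 held 24 and 22 reads, and the highest value, 125 CPM, had an exact 95% Poisson interval of 80.1 to 186 CPM. That interval reached down into the control values.

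**Figure D1:**
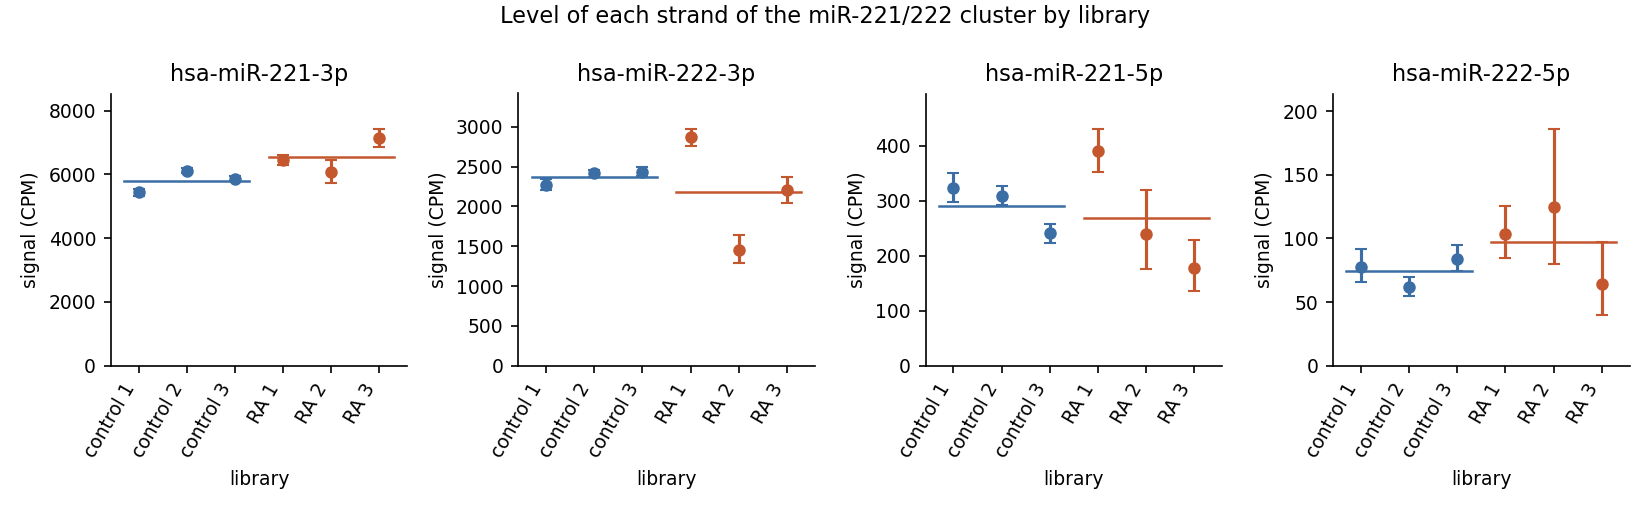
CPM of each strand (vertical axes, each from 0) in the 3 control (blue) and 3 RA (orange-red) libraries, with exact 95% Poisson intervals of the recovered reads as bars and group means as lines. The groups overlap for all 4 strands, and RA libraries spread more widely than controls, with miR-222-3p at 1459 CPM in RA replicate 2 against 2866 CPM in RA replicate 1.

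The order miR-221-3p, miR-222-3p, miR-221-5p, miR-222-5p held in all 6 libraries. miR-222-3p was 6.09- to 12.4-fold above miR-221-5p, so that both guide strands lay above both partner strands. Control and RA libraries overlapped for all 4 strands, while 25.8% of the 449 miRNAs showed no overlap between the groups.

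The comparison of RA with control asked whether the treatment changed these levels. limma was fitted to log2(CPM + 1), and p was adjusted by Benjamini-Hochberg over all 449 miRNAs. None of the 4 strands passed an adjusted p under 0.05, where 7.57% of all miRNAs passed, 2.9% as higher and 4.68% as lower after RA. At an unadjusted p under 0.05 the count among the strands was 0 of 4 in limma. The quasi-likelihood test of edgeR, run on whole reads, also gave 0 of 4, adjusted or unadjusted, against 14.7% of all miRNAs at the adjusted p. DESeq2 on the same reads gave miR-221-3p a log2 fold change of 0.36 with an unadjusted p of 0.036 (adjusted p = 0.14). In limma without RA replicate 3, miR-222-5p had 0.62 with an unadjusted p of 0.037 (adjusted p = 0.24). The split of the calls depended on the scaling, with 13 higher and 21 lower in limma and 17 and 11 in limma with CPM taken on the plain library total. edgeR, which differs in both test and scaling, gave 38 and 28.

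The log2 fold change of miR-221-3p was 0.17 (standard error 0.17, adjusted p = 0.63 from limma), with a 95% interval from 0.867- to 1.47-fold of the control level. For miR-222-3p it was -0.18 (standard error 0.24, adjusted p = 0.69 from limma), with an interval from 0.616- to 1.26-fold. In the reported fit, changes of 2-fold in either direction therefore fell outside the intervals of both guide strands on this scale. Without RA replicate 3 the log2 interval of miR-222-3p ran from -1.14 to 0.71 and included a halving. miR-221-5p had -0.18 (standard error 0.29, adjusted p = 0.75 from limma), with an interval from 0.568- to 1.38-fold. miR-222-5p had 0.34 (standard error 0.32, adjusted p = 0.63 from limma), and its interval from 0.776- to 2.07-fold was the only 1 of the 4 to include a doubling.

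The sign for miR-222-3p rested on 1 library, since without RA replicate 2 the log2 fold change was 0.081. That of miR-221-5p was 0.084 without RA replicate 3. In DESeq2 on the recovered reads both signs also turned, to 0.051 and 0.080. The median of all miRNAs was 0.32 in DESeq2, which differs in model as well as scaling, against 0.00 in the reported fit and 0.13 in limma on the plain library total. No sign is therefore assigned to either strand.

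**Figure D2:**
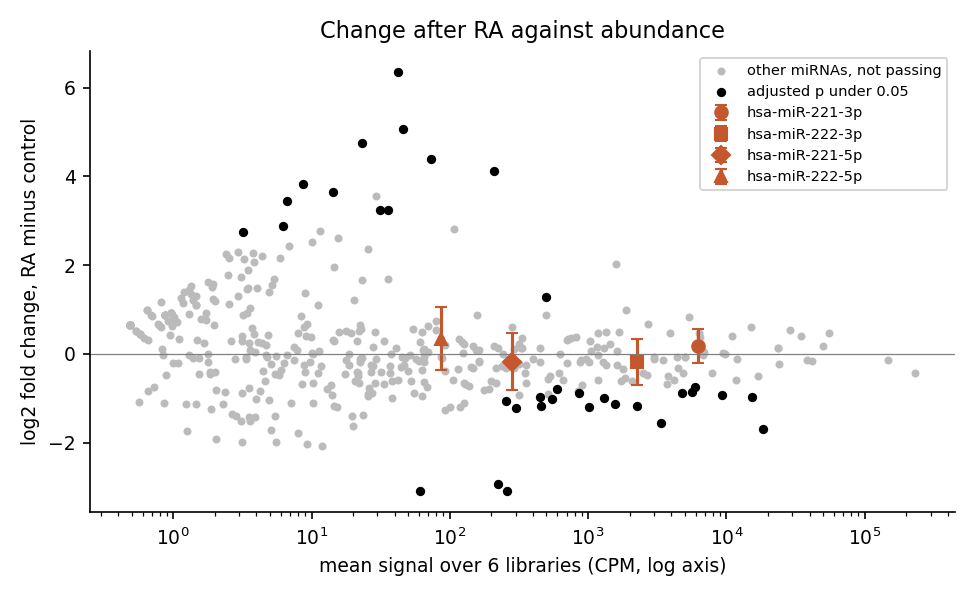
Log2 fold change on log2(CPM + 1), RA minus control (vertical axis), against mean CPM over the 6 libraries (horizontal log axis) for 449 miRNAs, with those at an adjusted p under 0.05 from limma in black and the 4 strands in orange-red with 95% intervals. All 4 intervals cross 0, and the strands lie near the middle of miRNAs of like abundance.

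The 152 miRNAs that averaged 100 CPM or more served for comparison, and their median absolute log2 fold change was 0.38. Of these 152, 73.7% had a larger absolute change than miR-221-3p, 71.1% a larger one than miR-222-3p and 72.4% a larger one than miR-221-5p. The miRNAs next to the guide strands in abundance show the range. Just above miR-221-3p was miR-26b-5p, with a log2 fold change of 0.47 (adjusted p = 0.24 from limma), which passed in DESeq2 (adjusted p = 0.019). Just below it was miR-378a-3p, a miRNA from an intron of PPARGC1B, with -0.75 (adjusted p = 0.024 from limma). Around miR-222-3p were miR-29a-3p, which targets collagens, with -0.19 (adjusted p = 0.63 from limma) and miR-101-3p, which targets the histone methyltransferase EZH2, with -1.16 (adjusted p = 0.0070 from limma). In limma, dropping any library but RA replicate 1 ended the call of miR-378a-3p (adjusted p up to 0.16), as did the plain library total and array weights. That of miR-101-3p was lost on dropping control replicate 1 or RA replicate 3 (highest adjusted p = 0.12).

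The spread between libraries differed among the strands. In the controls the coefficient of variation was 5.98% for miR-221-3p and 3.78% for miR-222-3p, against a median of 11.2% over the 152 abundant miRNAs. After RA it was 8.10% for miR-221-3p, where the median was 23.8% and 12 of the 152 varied less. For miR-222-3p it was 32.4% after RA, and 111 of the 152 varied less. Counting error alone would give 2.17% for miR-221-3p and 4.18% for miR-222-3p in the RA libraries. The 5p strands varied by 40.6% (miR-221-5p) and 31.8% (miR-222-5p) after RA, where counting alone would give 11.6% and 17.9%. The strand with the highest level was thus also the one that varied least between RA libraries.

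The ratio of the 2 guide strands within a library does not depend on the scaling of that library. miR-221-3p exceeded miR-222-3p 2.39-, 2.53- and 2.41-fold in control replicates 1, 2 and 3 and 2.25-, 4.18- and 3.24-fold in RA replicates 1, 2 and 3. The controls were nearly alike, RA replicate 1 lay just below them, and RA replicates 2 and 3 lay above. The exact 95% interval of the ratio was 3.66 to 4.77 in RA replicate 2 and 2.99 to 3.52 in RA replicate 3, both above the intervals of every control, which reached 2.59 at most. These intervals cover counting error within a library and not the spread between libraries. The mean ratio was 2.44 ± 0.0779 in the controls and 3.22 ± 0.962 after RA (SD, n = 3 each). The mean log2 ratio was higher by 0.35 after RA, which was less than the spread between the RA libraries (exact permutation test, two-sided, p = 0.4, n = 3 each, smallest possible p 0.1). Without RA replicate 2 the difference was 0.15.

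**Figure D3:**
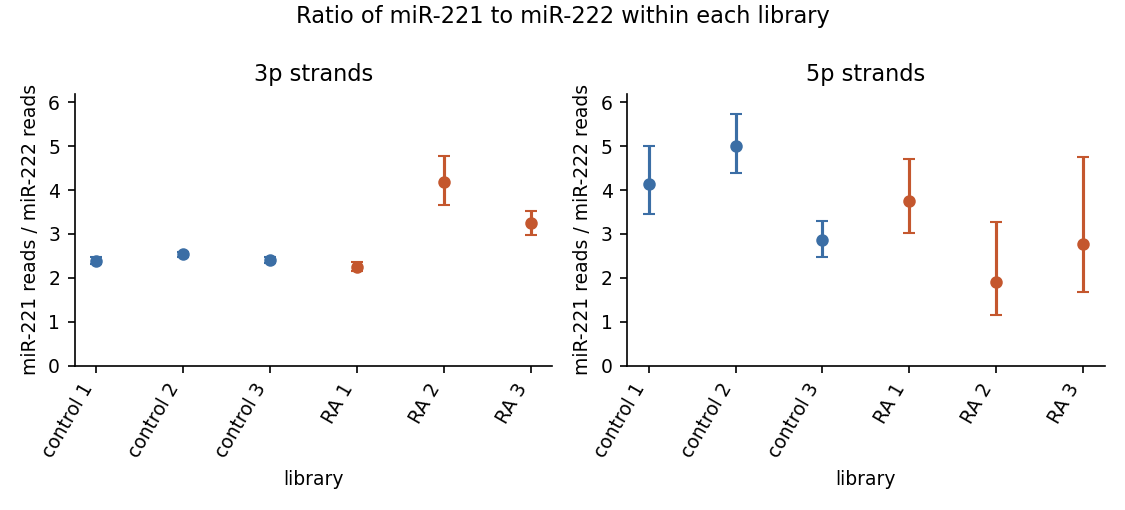
Reads of miR-221 per read of miR-222 (vertical axis) for the 3p and the 5p strands in each control (blue) and RA (orange-red) library, with exact 95% binomial intervals. The 3p ratio is 2.39 to 2.53 in the controls and 2.25 to 4.18 after RA.

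For the 5p strands the ratio of miR-221-5p to miR-222-5p was 4.15, 5.01 and 2.86 in control replicates 1, 2 and 3 and 3.76, 1.92 and 2.77 in RA replicates 1, 2 and 3. The groups overlapped. In RA replicate 2 the 3p ratio was the highest and the 5p ratio the lowest of the 6 libraries. The mean log2 ratio of the 5p strands was lower by 0.52 after RA (exact permutation test, two-sided, p = 0.2, n = 3 each), which did not pass.

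The arms of each hairpin were compared next, as the share of 5p reads among all reads of the hairpin. For miR-221 the 5p share was 5.61%, 4.80% and 3.94% in control replicates 1, 2 and 3 and 5.70%, 3.79% and 2.43% in RA replicates 1, 2 and 3. RA replicate 1 was close to the highest control, while RA replicates 2 and 3 were below every control. The exact (Clopper-Pearson) 95% interval in RA replicate 3, 1.86% to 3.10%, ended below those of all controls. For miR-222 the 5p share was 3.31%, 2.49% and 3.34% in control replicates 1, 2 and 3 and 3.49%, 7.89% and 2.82% in RA replicates 1, 2 and 3. RA replicate 2 stood apart, with 24 of 304 reads from the 5p arm and an interval of 5.12% to 11.5%. The intervals of these shares, too, cover counting error only. The 3p strand predominated in all libraries. Each read of miR-221-5p was matched by 16.8 to 24.4 reads of miR-221-3p in the controls and 16.5 to 40.2 after RA. For miR-222 the lowest ratio was 11.7, in RA replicate 2, and the highest 39.2, in control replicate 2.

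**Figure D4:**
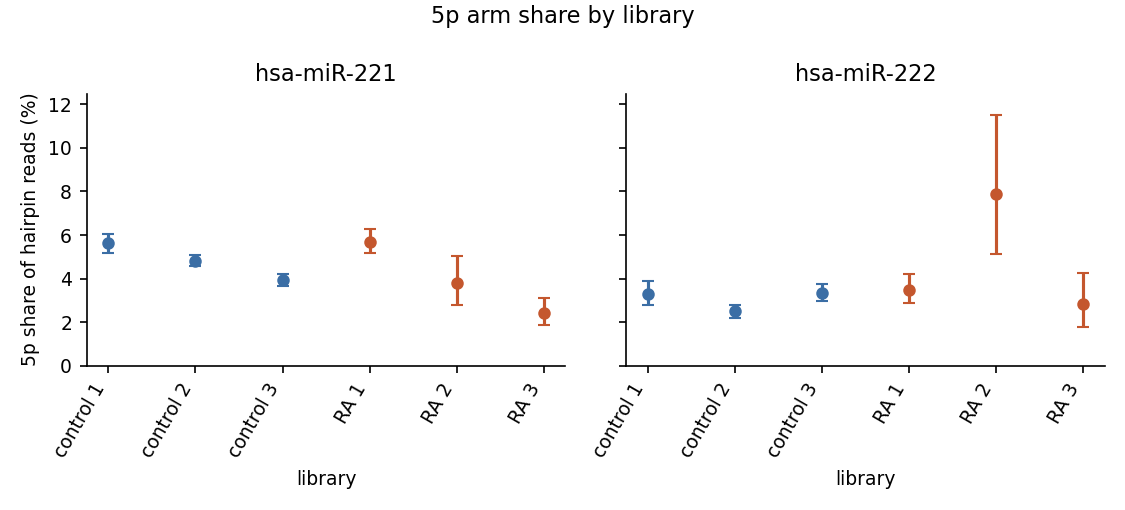
Percent of a hairpin's reads that come from its 5p arm (vertical axis) in each control (blue) and RA (orange-red) library, with exact 95% binomial intervals. miR-221 lies between 2.43% and 5.70%, and miR-222 between 2.49% and 3.49% except in RA replicate 2, at 7.89%.

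The 5p share was higher for miR-221 than for miR-222 in 3 of 3 controls and in 1 of 3 RA libraries, RA replicate 1. The arm ratio was tested with limma on the log2 ratio of the 5p to the 3p strand over the 111 hairpins with both arms listed. Of these, 43 had the 3p strand ahead. miR-222 ranked 16 and miR-221 ranked 17 from the hairpin with the strongest 3p excess, with mean log2 ratios of -4.73 and -4.50. The median absolute imbalance was 3.63. After RA the log2 arm ratio moved by -0.35 for miR-221 (standard error 0.43, 95% interval -1.37 to 0.67, adjusted p = 0.73 from limma). For miR-222 it moved by 0.52 (standard error 0.48, interval -0.62 to 1.66, adjusted p = 0.68 from limma). Neither passed, where 0.901% of the hairpins did, which was 1 hairpin, miR-30e, named after its value was seen, with a change of -1.91 (adjusted p = 0.033 from limma). That call ended on dropping any control or RA replicate 3 (highest adjusted p = 0.28). The estimate for miR-222 was 0.057 without RA replicate 2, and that for miR-221 was -0.029 without RA replicate 3.

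Together the 4 strands took 0.704%, 0.931% and 0.784% of the miRNA reads in control replicates 1, 2 and 3 and 0.858%, 0.860% and 1.10% in RA replicates 1, 2 and 3. The highest share was in RA replicate 3, and the groups overlapped. The mean was 0.806 ± 0.115% in the controls and 0.941 ± 0.141% after RA (SD, n = 3 each; exact permutation test, two-sided, p = 0.3). miR-221-3p supplied 65.8% to 77.0% of the reads of the cluster.

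miR-222-3p and miR-221-5p were highest in RA replicate 1. miR-221-3p was highest in RA replicate 3 (7136 CPM), and miR-222-5p in RA replicate 2 (125 CPM). RA replicate 1 held the most signal of the endothelial markers miR-126-3p and miR-126-5p. Their sum was 412 CPM there, 233 CPM in RA replicate 3 and 3.16 to 8.99 CPM in the controls. In RA replicate 2 both were at 0, which allows up to 3 reads or 15.6 CPM each. The liver marker miR-122-5p was at 9493 CPM in RA replicate 1, 5.21 CPM in RA replicate 2, 0 in RA replicate 3 (which allows up to 8.72 CPM) and 1.61 to 32.1 CPM in the controls. Their part in the levels of the cluster was not tested.

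By likeness of pattern, measured as the root mean square distance between log2(CPM + 1) profiles centred on their means over the 6 libraries, miR-221-3p lay closest to miR-361-5p (0.093), miR-181b-5p (0.10) and miR-15b-5p (0.12), where the median distance to 151 abundant miRNAs was 0.37. miR-222-3p lay closest to miR-10a-3p (0.074), miR-15b-3p (0.080) and miR-486-5p (0.11), where the median was 0.39. The distance between the 2 guide strands was 0.31, and 60 miRNAs lay nearer to miR-221-3p than its cluster partner did. All 6 libraries enter each distance, which is a description without a test.

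Lists of miRNAs known to share a target with the cluster were then examined. Of 9 miRNAs known to target CDKN1B, all were measured, 1 was lower, 0 were higher and 8 did not pass, where 4.68% of all miRNAs were lower and 2.9% higher. The list had a median log2 fold change of -0.11 against 0.00 over all 449 miRNAs. All 9 averaged more than 100 CPM, and the median over the 152 miRNAs at 100 CPM or more was -0.18. The lower one was miR-152-3p, whose mean was 4072 ± 707 CPM with RA against 7262 ± 499 CPM without (SD, n = 3 each, adjusted p = 0.017 from limma). In limma its call ended on dropping any control or RA replicate 3, where the highest adjusted p was 0.12. Without 1 library its log2 fold change still lay between -0.98 and -0.76, against -0.85 in the reported fit. The call was also lost with CPM on the plain library total. miR-148a-3p, of the same seed family and with the highest level among the 9, had a log2 fold change of -0.14 (adjusted p = 0.77 from limma). The 2 guide strands made up 4.53% of the list's summed CPM in the controls and 5.31% after RA.

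Of 8 measured miRNAs known to target ESR1, out of 10 listed, 1 was lower, 0 were higher and 7 did not pass, beside 4.68% lower and 2.9% higher over all miRNAs. The median log2 fold change was -0.043. edgeR called 2 of the list lower, where it called 28 of all 449 miRNAs lower. The second was miR-18a-5p (edgeR adjusted p = 0.027), named after its value was seen. miR-221-3p and miR-222-3p supplied most of the signal of this list, 71.5% in the controls and 68.2% after RA. The lower member was miR-19b-3p of the miR-17-92 cluster, with 50.8 ± 14.5 CPM under RA against 398 ± 157 CPM without (SD, n = 3 each, adjusted p = 2.7e-04 from limma). Dropping RA replicate 3 ended that call (adjusted p = 0.063 from limma). miR-22-3p, next in abundance to the cluster, had a log2 fold change of 0.68 (adjusted p = 0.088 from limma). It passed as higher in DESeq2 (adjusted p = 0.0046) and in limma on the plain library total (adjusted p = 0.025), so the count of 0 higher holds for the reported fit and not for these. miR-206, a miRNA of muscle, had -0.20 (adjusted p = 0.64 from limma).

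**Figure D5:**
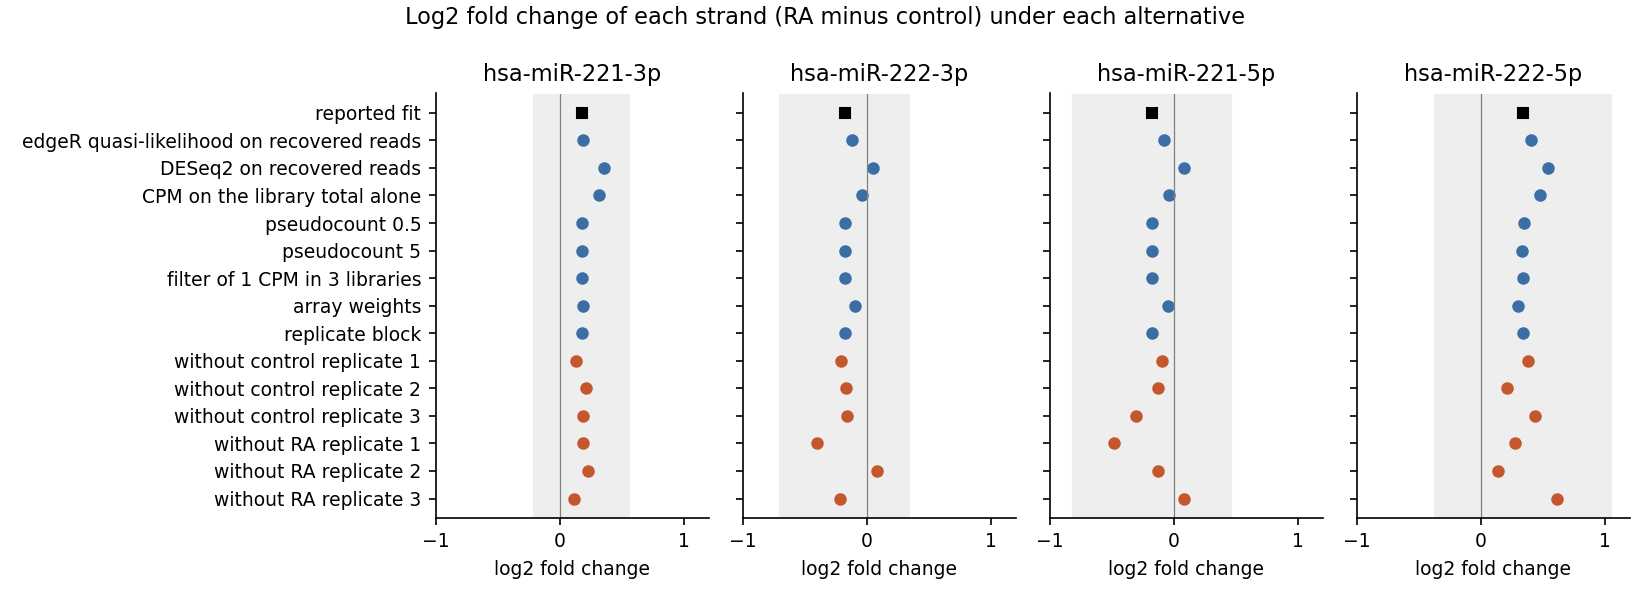
Log2 fold change, RA minus control (horizontal axis), of each strand in the reported limma fit (black), under other processing (blue) and without each library in turn (orange-red), with the 95% interval of the reported fit shaded. Values run from 0.11 to 0.36 for miR-221-3p, -0.41 to 0.081 for miR-222-3p, -0.48 to 0.084 for miR-221-5p and 0.14 to 0.62 for miR-222-5p, and none passes an adjusted p under 0.05.

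Over 14 alternatives, none of the 4 strands passed, with the lowest adjusted p at 0.14 for miR-221-3p, 0.21 for miR-222-3p, 0.20 for miR-221-5p and 0.24 for miR-222-5p. The sign of the change was the same in all 14 for miR-221-3p and for miR-222-5p. These alternatives reuse the same 6 libraries, so a shared sign is not independent support. miR-221-3p had 0.36 in DESeq2 and 0.19 in edgeR, where the median of all miRNAs was 0.32 and 0.15.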

How the data were processed

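Small RNA libraries of 3 control and 3 RA samples were sequenced. The authors deposited 1 normalized signal per miRNA and library, headed CPM, on an effective library size, with the build hg19 named in the processing notes. How reads were aligned and counted is not given in the sources used here. The deposited group log2 values were not used. Dividing each library by its lowest non-zero value gave whole reads for 100% of the values (tolerance 0.01 reads), with 1 read worth 0.233 to 5.21 CPM.

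limma 3.58.1 with a mean-variance trend (R 4.3.3) was fitted to log2(CPM + 1) of all 449 miRNAs without a filter, and to log2 arm ratios of 111 hairpins paired by name, each with Benjamini-Hochberg adjustment. The design named this test for normalized values. Single ratios used exact permutation tests (scipy 1.17.1), in which 3 against 3 cannot go below p = 0.1. The fits were tested on simulated reads whose spread was taken from the controls alone, so the wider spread between RA libraries was not covered. edgeR 4.0.16 and DESeq2 1.42.0 on recovered reads, other scaling, pseudocounts of 0.5 and 5, filters, array weights, the replicate number as a block and dropping each library in turn were alternatives.

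Members and lists were chosen with earlier results of these data known. The named miRNAs were the 4 strands, the 3 nearest in pattern to each guide strand at a mean of at least 100 CPM, the neighbours of each in mean CPM, and of each list the 2 most abundant and all that passed. A further list that had been fixed is not reported here.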

Additional observations from a re-analysis of the deposited data

How the results depend on the processing

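No alternative moved any of the 4 strands or either arm ratio past the threshold. The counts of calls moved more. The 34 calls over all miRNAs became 66 in edgeR, 66 in DESeq2 and 55 with the replicate block, and 10 to 49 without 1 library. Dropping a library also changed the test, with 3 residual degrees of freedom instead of 4. The prior weight of limma on the trend was 7.39 degrees of freedom in the reported fit. It was 0.819 without RA replicate 3, 1.34 without RA replicate 2 and 11.96 without control replicate 3. A call lost without 1 library therefore need not rest on that library. The 1 call over arm ratios became 3 at a pseudocount of 5, 3 at a minimum of 10 CPM in both arms, 3 on recovered reads and 0 with the replicate block, and 0 to 4 without 1 library. The log2 fold change of miR-222-3p turned to 0.051 in DESeq2 and lay between -0.41 and 0.081 without 1 library, and that of miR-221-5p turned to 0.080 in DESeq2 and lay between -0.48 and 0.084. Among the miRNAs named beside the cluster, miR-10a-3p turned to 0.13 in DESeq2 and 0.020 on the library total, with -0.33 to 0.15 without 1 library, and miR-148a-3p turned to 0.045 in DESeq2, with -0.31 to 0.083. miR-15b-5p lay between -0.037 and 0.22 and miR-361-5p between -0.022 and 0.16 without 1 library. The cause was not tested. Same-numbered control and RA libraries correlated in their deviations at 0.12, -0.19 and 0.13 over 260 miRNAs. These values gave no clear sign of pairing by number, and with 3 libraries per group they cannot exclude it. The block changed no call among the 4 strands (replicate block, adjusted p = 0.74 for miR-221-3p and miR-222-3p, 0.78 for miR-221-5p and 0.73 for miR-222-5p, from limma). In the block fit over all miRNAs limma set an infinite prior weight on the trend, so each miRNA's own spread over 2 residual degrees of freedom did not enter, and its 55 calls, miR-22-3p among them, rest on the pooled spread alone. Depth limits the 5p strands most, at 22 to 61 reads in RA replicates 2 and 3.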
